A study of Mus musculus with 2 samples.

Results

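The cells described here are dividing cells of the mouse subventricular zone (SVZ), the germinal layer along the lateral ventricles, with high summed expression of Gja1, Tead2, Emp1, Anxa5, Cdc42ep2 and Mgst1. They were chosen by measured values. Barcodes with at least 5000 unique molecular identifiers (UMIs, distinct captured transcripts) and at most 20% mitochondrial UMIs were kept, and each was scored by the sum of the 6 genes in CPM (UMIs scaled to the same total in every cell). Members lay in the top 12% of the score over both libraries, had at least 2 UMIs of the proliferation gene Mki67, and had Apoe under 500 CPM. This left 395 members of 7430 kept barcodes, or 5.32%, and of 4647 kept barcodes with at least 2 Mki67 UMIs, called cycling cells below. The other 4252 cycling cells served as the comparison. These included 85 cells that passed the score but not the Apoe limit.

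Gja1 encodes connexin 43, the main gap junction protein of astrocytes and of the radial glia-like stem cells of the SVZ. Tead2 encodes a DNA-binding factor of the Hippo pathway, in which kinases hold the coactivators YAP and TAZ in the cytoplasm until the pathway is switched off, and YAP or TAZ then act on genes through TEAD proteins. SVZ stem cells resemble astrocytes when quiescent, and on activation they divide and give rise to progenitors of neurons and of oligodendrocytes.

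The sequences before the start sites of 4 genes are shown because the results turn on their expression and because they differ in the letters GGAATG, the core recognised by TEAD proteins, searched on both strands (read as CATTCC on the other). Each is the 250 bases before the RefSeq start site on GRCm38.p6, 5′ to 3′ along the gene's strand, with a match in capitals. Gja1 is at chr10:56377050-56377299 (+), Tead2 at chr7:45215542-45215791 (+), Wwtr1, which encodes TAZ, at chr3:57575911-57576160 (−) and Crim1, a gene on a list of YAP and TEAD targets, at chr17:78199998-78200247 (+).
Gja1: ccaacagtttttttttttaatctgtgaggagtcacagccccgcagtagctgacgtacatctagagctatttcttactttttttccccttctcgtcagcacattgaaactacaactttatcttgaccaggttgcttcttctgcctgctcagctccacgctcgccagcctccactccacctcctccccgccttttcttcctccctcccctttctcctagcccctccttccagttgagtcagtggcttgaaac
Tead2: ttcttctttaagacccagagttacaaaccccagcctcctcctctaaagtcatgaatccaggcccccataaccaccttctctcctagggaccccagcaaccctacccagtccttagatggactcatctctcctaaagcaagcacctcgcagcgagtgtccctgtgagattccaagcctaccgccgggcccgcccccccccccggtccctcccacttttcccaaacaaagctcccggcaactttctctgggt
Wwtr1: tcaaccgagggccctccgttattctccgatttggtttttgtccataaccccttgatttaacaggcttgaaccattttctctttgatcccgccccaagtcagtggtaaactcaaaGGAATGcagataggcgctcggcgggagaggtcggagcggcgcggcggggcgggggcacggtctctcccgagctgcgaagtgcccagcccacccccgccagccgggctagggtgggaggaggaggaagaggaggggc
Crim1: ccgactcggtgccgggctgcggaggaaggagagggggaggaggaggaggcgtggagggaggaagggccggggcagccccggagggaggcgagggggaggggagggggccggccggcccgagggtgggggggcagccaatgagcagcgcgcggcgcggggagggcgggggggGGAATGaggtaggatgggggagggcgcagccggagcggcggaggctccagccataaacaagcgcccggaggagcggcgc
The Gja1 and Tead2 stretches hold no match, and the match begins 136 bases before the start site in Wwtr1 and 79 bases before it in Crim1. Over windows of 300 bases, which run on past the start site, none of the 8 windows of the 6 score genes held the letters. They were found in 16.6% of 181 windows of genes higher in the members, 14.6% of 321 windows of genes lower in them, 11.1% of 8224 windows of all genes compared and 14.7% of all 32851 windows in the table. Higher and lower genes carried the letters at similar shares. A match is a string of letters, not a measured binding site.

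Tissue pieces of 5 C57BL/6 mice were pooled for each library, at 2 months (young) or 15 to 18 months (aged) of age. The dissociated cells were held in proliferation medium before loading on the 10x Genomics 3′ version 3 platform, so the values describe cultured cells, with no genetic change or drug named in the labels. There was 1 library per age and no replicate, so no test between ages or cell groups was made, and age cannot be told apart from library, pool or culture. Ratios carry exact 95% intervals that cover counting error only. Of 5151 young barcodes 3766 were kept, with a median of 24188 UMIs, and of 4731 aged barcodes 3664, with a median of 25542.5. The libraries shared 4 barcode sequences, of which 2 were kept in both and 1 was a member. No doublet caller was run and no doublets were removed, so members may include some.

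Members were 239 of 2378 cycling cells in the young library, or 10.1% (exact binomial interval 8.87 to 11.3), and 156 of 2269 in the aged library, or 6.88% (5.87 to 7.995). These shares describe 1 library each, and the intervals over cells say nothing of the spread between libraries of the same age. They also depend on the limits of the rule. The lowest scores inside and the highest outside the top 12% were 407.039 and 406.848 CPM, 82 members lay within 10% above the limit, and 108 other cycling cells lay within 10% below it. Another 85 cycling cells passed the score but not the Apoe limit, 35 of them young and 50 aged. Of the high-scoring cycling cells they made up 12.8% (young) and 24.3% (aged), and without the Apoe limit the member shares were 11.5% and 9.08%. With a mitochondrial limit of 10% they were 15.7% and 8.30%.

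Members were somewhat deeper than the other cycling cells, with medians of 27542 against 25342 UMIs in the young and 30195.5 against 27405 in the aged library. Mitochondrial shares had medians of 8.98% against 8.69% and 10.3% against 8.62%. With every cell thinned to 5000 UMIs, the median member showed 2182 genes against 2189 in the young library and 2165.5 against 2204 in the aged. Their part in the results below was not tested.

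The label of the group names astroglia, and the markers bear this out only in part. Of 33 astrocyte and quiescent stem cell genes (Apoe, used by the rule, left out), 23 reached 10 CPM in members or in other cycling cells of each library. Among them Id3, Mlc1 and Htra1 were at least 1.5-fold higher in members in both libraries, and Sox9, a glial transcription factor, was lower. Id3, an inhibitor of differentiation factors, was at 299.7 against 170.2 CPM in the young library and 298 against 168 CPM in the aged, with members given first here and below. Gfap, the intermediate filament of mature astrocytes, was at 1.01 CPM in young and 0.201 CPM in aged members, a handful of UMIs at most, and Gjb6, the other astrocyte connexin, was at 0. The water channel gene Aqp4 was at 6.23 and 9.02 CPM, and the calcium-binding protein gene S100b at 6.37 and 8.02 CPM. Slc1a3, the glutamate transporter GLAST, was at 408 against 357 CPM in the young library and at 783 against 547 CPM in the aged. Fabp7, a fatty acid-binding protein of radial glia, was at 5501 against 5246 CPM and 4146 against 4048 CPM. Slc1a3 and Fabp7 were thus higher in members by less than 1.5-fold. Ttyh1, another gene of the list, was lower, at 5.36 against 12.5 CPM and 10.6 against 15.1 CPM, past 1.5-fold in the young library only. Gfap was near 0 in the other cycling cells too, at 0.478 CPM in the young and 0.591 CPM in the aged library. Over the list 3 of 23 genes were higher and 1 lower, where 2.44% of all genes compared were higher. The list's median log2 ratio was 0.39, against −0.04 over all genes compared. All 34 list genes, Apoe included, summed to 9698 against 8878 CPM in the young and 9908 against 8326 CPM in the aged library. With Gfap and Gjb6 at or near 0, the members are named here by their leading genes and not as astrocytes.

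Markers of microglia, endothelium, mural cells and ependyma were low. The 10 microglial genes summed to 3.04 CPM in young and 0.802 CPM in aged members, with 9 and 8 of them at 0. The 9 endothelial genes summed to 3.62 and 3.41 CPM, with 4 at 0 in each library, and the 12 genes of mural cells and fibroblasts to 3.19 and 4.01 CPM, with 8 and 5 at 0. The 11 ependymal genes reached 19.1 and 16.8 CPM, against 10.7 and 9.97 CPM in the other cycling cells, with 3 and 4 of them at 0. None of these 4 lists had a gene that reached the level needed for a comparison. Neural markers were higher, since neuroblast genes summed to 1924 and 1869.8 CPM in members against 2314 and 2618 CPM in the others. Mature neuron genes summed to 377 and 375 CPM against 441 and 428 CPM, and mature oligodendrocyte genes to 66.3 and 47.9 CPM against 72.4 and 56.7 CPM.

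The 6 score genes show what the choice of cells selected, and their differences are no finding. Gja1 was at 78.9 against 13 CPM in the young and 77.2 against 15.2 CPM in the aged library. Tead2 was at 91.1 against 18.8 CPM and 76.4 against 14.4 CPM. Anxa5, a calcium-dependent phospholipid-binding protein, gave 42.6% of the score's UMIs in young members and 45.7% in aged members, so this 1 gene weighs most in the score. Emp1, a membrane protein of the PMP22 family, was at 25.8 against 2.64 CPM and 23.3 against 2.63 CPM. Cdc42ep2, an effector of the small GTPase CDC42, was at 35.2 against 7.46 CPM and 18.2 against 4.86 CPM. Mgst1, a membrane-bound glutathione transferase, was at 89.5 against 19.95 CPM and 96.5 against 18.5 CPM. The median member held 4 of the 6 transcripts in either library.

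The score was also made from 5 genes, members were chosen again, and the gene left out was measured. The 6 genes had been put together from earlier results of these data, so this describes how far each follows the others and is no independent support. Emp1 left out was 6.00-fold higher in such members in the young library (4.78 to 7.52) and 5.23-fold in the aged (3.99 to 6.80). Gja1 left out was 3.77-fold higher (3.34 to 4.24) and 3.42-fold (2.99 to 3.91). Tead2 left out was 3.17-fold higher (2.84 to 3.54) and 3.97-fold (3.47 to 4.52). Mgst1 was 3.10-fold and 3.44-fold higher, Anxa5 2.88-fold and 2.90-fold, and Cdc42ep2 2.63-fold and 2.66-fold. Each gene left out was higher in both libraries, by 2.63-fold or more. Of the members chosen without Gja1, 208 of 248 young and 136 of 157 aged ones were also members by all 6.

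Across the transcriptome 8236 genes were compared, those with at least 10 CPM in either arm of each library, by the log2 ratio of CPM plus 1. At least 1.5-fold higher in members in both libraries were 201 genes (2.44%), 6 of them the score genes, and 297 genes (3.61%) were lower. At 2-fold these were 67 (0.814%) and 85 (1.03%). Only 1 gene, Dchs1, passed 1.5-fold in opposite directions in the libraries. The lists described below were chosen with earlier results of these data known, and each count is set against these shares. A gene could reach 10 CPM through 1 arm alone, as Lhfpl3, Dll1 and Pak3 did through the other cycling cells. Genes low in both arms were left out, so the counts below favour genes that differ.

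**Figure D1:**
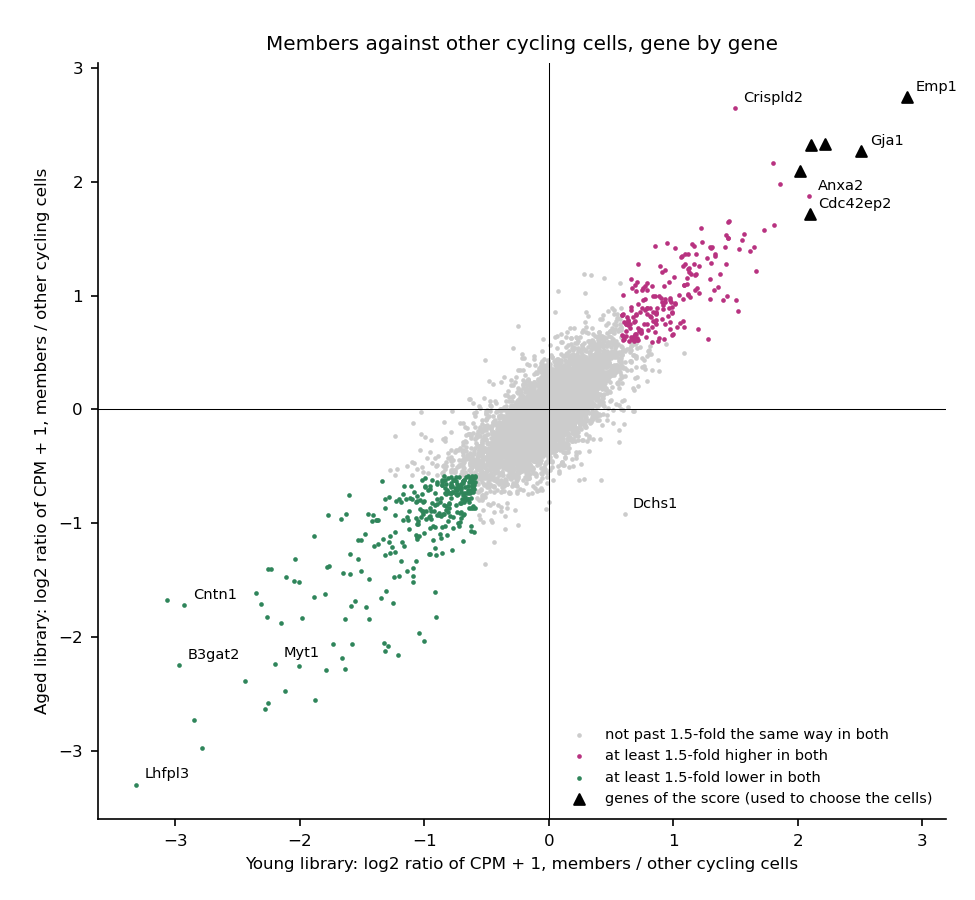
Each point is a gene, placed by its log2 ratio of CPM plus 1 between members and other cycling cells in the young (x axis) and aged (y axis) library. Genes past 1.5-fold in both libraries lie in the upper right (higher) and lower left (lower), the black triangles are the genes of the score, and Dchs1 lies alone at lower right.

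A group with several higher genes was that of annexins and S100 proteins, calcium-binding proteins at membranes and the cytoskeleton, with Anxa5 itself left out. Of 8 compared, 5 were higher and none lower, with a median log2 ratio of 0.70 against −0.04 over all genes compared. Anxa2, a partner of S100a10 at the plasma membrane, was at 54.3 against 11.96 CPM in the young and 38.9 against 9.90 CPM in the aged library, 4.54-fold (3.99 to 5.16) and 3.93-fold (3.32 to 4.63) higher. Anxa3 was at 333 against 94.8 CPM and 140 against 30.3 CPM, 3.51-fold (3.34 to 3.69) and 4.60-fold (4.21 to 5.02) higher. S100a11 was at 65.3 against 25.7 CPM and 86.8 against 31.6 CPM, and S100a10 at 692 against 414 CPM and 781 against 489 CPM. Anxa6 was the remaining higher gene. Anxa2 and Anxa3 stood at lower levels in the aged library in members and in other cells alike, while their member to other ratios stayed above 3-fold in both.

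Both comparable relatives of Emp1 were higher. Emp2 was at 64.3 against 26.8 CPM and 74.2 against 26.2 CPM, 2.40-fold and 2.83-fold higher. Pmp22, a myelin membrane protein in Schwann cells that other cells also make, was at 133 against 60.9 CPM and 136 against 63.0 CPM. The other connexins gave no such picture, since none besides Gja1 reached 10 CPM in both libraries. Gjc1 was at 18.5 against 19.1 CPM in the young and 6.82 against 8.75 CPM in the aged library.

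In the Hippo pathway the higher genes were the coactivators and a binding partner of theirs. Of 21 genes compared, 3 were higher and none lower, with a median log2 ratio of 0.03. Wwtr1 was at 66.7 against 23.9 CPM and 81.2 against 28.0 CPM, 2.79-fold (2.50 to 3.10) and 2.90-fold (2.60 to 3.24) higher. Yap1 was at 29.2 against 15.95 CPM and 26.5 against 15.1 CPM, 1.83-fold (1.57 to 2.14) and 1.76-fold (1.45 to 2.11). Amotl1, an angiomotin that binds YAP, was at 231 against 127 CPM and 158 against 91.3 CPM. The kinase gene Lats1 was at 22.3 against 22.7 CPM in the young library and 23.7 CPM in both arms of the aged, and Stk3 at 25.05 against 19.5 CPM and 25.3 against 20.4 CPM. Among the other TEAD genes, Tead1 was at 106 against 82.5 CPM and 122 against 92.3 CPM, under 1.5-fold, and Tead3 and Tead4 were below 2 CPM in every arm.

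Target genes of YAP and TEAD were mostly not past the limit. Of 9 compared, 1 was higher and none lower, with a median of 0.29. The higher gene was Crim1, a membrane protein that binds growth factors of the BMP family, at 49.7 against 22.7 CPM and 85.0 against 34.4 CPM. Of the targets most used as reporters, Ctgf was at 0.434 against 0.407 CPM in the young and 1.60 against 0.788 CPM in the aged library. Cyr61 was at 11.9 against 8.40 CPM and 7.62 against 5.45 CPM, and Ankrd1 was not detected in any arm.

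Genes of the cell surface and matrix moved in both directions. Of 22 genes for matrix and integrins, 7 were higher and 3 lower, with a median of 0.44. Some of the higher ones, such as Itgb5 and Lamb2, reached 10 CPM in members only. The integrin gene Itgb5 was at 19.3 against 7.94 CPM and 21.9 against 7.85 CPM, the laminin gene Lamb2 at 12.02 against 3.38 CPM and 12.4 against 3.63 CPM, and the fibulin gene Fbln2 at 415 against 190 CPM and 324 against 160 CPM. Itga5, Lama5, Lamc1 and Cd151 were the other higher genes. The lower ones were Itgb8, at 36.8 against 81.9 CPM and 48.3 against 96.1 CPM, the proteoglycan gene Vcan and the protease inhibitor gene Timp2.

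Outside that list, Col5a2, Mmp14 and Crispld2 were among the 15 genes named as highest. They were named for their difference, so they add nothing to the count of the list. Col5a2, a fibrillar collagen chain, was at 24.6 against 6.31 CPM and 26.1 against 7.83 CPM. Mmp14, a membrane-bound matrix metalloproteinase, was at 82.7 against 29.8 CPM and 77.0 against 26.4 CPM. Crispld2, a secreted protein, was at 26.5 against 8.74 CPM in the young and 21.3 against 2.55 CPM in the aged library, 3.03-fold (2.55 to 3.60) and 8.35-fold (6.46 to 10.8) higher. Its fold was larger in the aged library, where the other cycling cells were lower, and that difference was not tested.

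The remaining genes named as highest have varied roles. Ifitm3, an interferon-inducible membrane protein, was at 415 against 124 CPM and 319 against 106 CPM, and Bst2, which tethers enveloped virus particles, at 23.0 against 7.82 CPM and 20.7 against 5.86 CPM. The interferon list as a whole gave 1 higher (Bst2) and 1 lower (Ifit2) of 7 compared. Ptrf, which builds caveolae, was at 30.4 against 9.73 CPM and 50.9 against 17.5 CPM. S1pr1, a receptor for sphingosine-1-phosphate, was at 27.9 against 10.5 CPM and 26.1 against 9.54 CPM. The bicarbonate cotransporter gene Slc4a4 was at 207 against 81.6 CPM and 199 against 77.7 CPM. The homeobox gene Prrx1 was at 58.8 against 23.4 CPM and 47.3 against 17.0 CPM, and Bcl2l12 of the BCL2-like genes at 31.4 against 7.94 CPM and 31.5 against 7.23 CPM. These genes were named for that difference. High levels were not limited to cycling cells, since in the 411 kept cells with a high score but under 2 Mki67 UMIs, to which no Apoe limit applied, 11 of the 15 genes were higher than in members in both libraries. There Slc4a4 was at 379 CPM in the young and 393 CPM in the aged library, and Ifitm3 at 619 and 524 CPM.

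Among glutathione and antioxidant genes other than Mgst1, 19 were compared. Of these 4 were higher and none lower, with a median of 0.29. Gsta4, a transferase for products of lipid peroxidation, was at 45.6 against 16.2 CPM and 48.9 against 14.9 CPM, 2.82-fold (2.47 to 3.21) and 3.27-fold (2.83 to 3.78) higher. Gpx8, a peroxidase of the endoplasmic reticulum, was at 32.9 against 13.5 CPM and 58.6 against 18.8 CPM. Gstm1 and Slc7a11, the cystine importer, were the other 2. Gstm1 has close paralogs, and no label says how reads shared with them were counted.

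Kinases that CDC42 binds went the other way from Cdc42ep2. Pak1 was at 18.5 against 34.4 CPM and 12.4 against 31.2 CPM, and Pak3, which is mainly neuronal, at 2.75 against 11.99 CPM and 1.60 against 11.8 CPM. Of 5 reactive astrocyte genes compared, 2 were higher and none lower. These were the hyaluronan receptor gene Cd44, at 61.7 against 24.5 CPM and 49.9 against 22.1 CPM, and Lgals1, a galectin, at 1450 against 815 CPM and 1186 against 717 CPM.

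Genes of oligodendrocyte precursors were lower in members. Of 5 oligodendrocyte precursor genes compared, 3 were lower and none higher, with a median of −0.84. Of the lower ones Lhfpl3 reached 10 CPM in the other cycling cells only. Lhfpl3, a membrane protein gene marking these precursors, was at 4.34 against 52.2 CPM and 6.22 against 70.0 CPM, 12.03-fold (8.41 to 17.9) and 11.3-fold (7.92 to 16.6) lower. Olig1, a lineage factor, was at 611 against 1093 CPM and 433 against 777 CPM, and the proteoglycan gene Cspg4 at 11.6 against 28.4 CPM and 23.1 against 41.0 CPM. Olig2 differed less, at 420 against 516 CPM and 321 against 442 CPM. Olig1 and Olig2 were thus still transcribed in members, at lower levels than in other cycling cells.

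Myt1, a zinc finger factor of the oligodendrocyte and neuronal lineages, was at 4.78 against 25.5 CPM and 3.61 against 20.7 CPM. Elavl4, a neuronal RNA-binding protein, was at 11.1 against 39.3 CPM and 5.62 against 26.6 CPM, and was the 1 lower gene among 6 neuroblast genes compared. Cntn1, a neural adhesion molecule, was at 6.95 against 59.5 CPM in the young and 15.6 against 53.9 CPM in the aged library, 8.56-fold (6.44 to 11.6) and 3.44-fold (2.75 to 4.37) lower. B3gat2, which makes the HNK-1 carbohydrate, was at 3.47 against 34.1 CPM and 6.82 against 36.2 CPM. Ntrk3, the neurotrophin-3 receptor, was at 3.91 against 22.6 CPM and 6.62 against 26.01 CPM. Tagln3, Cacng4, Enc1 and Tub completed the 10 named as lowest, with folds from 3.22 to 5.78 lower over both libraries. No member value of these genes reached a value of the other cycling cells.

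Stem cell and proneural genes differed less. Of 14 genes of activated stem cells and progenitors, none was higher or lower at 1.5-fold, with a median of −0.04. Nes, an intermediate filament of neural progenitors, was at 633 against 632 CPM and 601 against 602 CPM, Egfr at 161 against 143 CPM and 181 against 168 CPM, and Sox2 at 230 against 275 CPM and 238 against 296 CPM. Of 5 proneural genes 1 was lower, the Notch ligand gene Dll1, at 5.65 against 14.4 CPM and 2.81 against 16.03 CPM. Dcx, a microtubule protein of neuroblasts, was under 2 CPM in every arm.

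**Figure D2:**
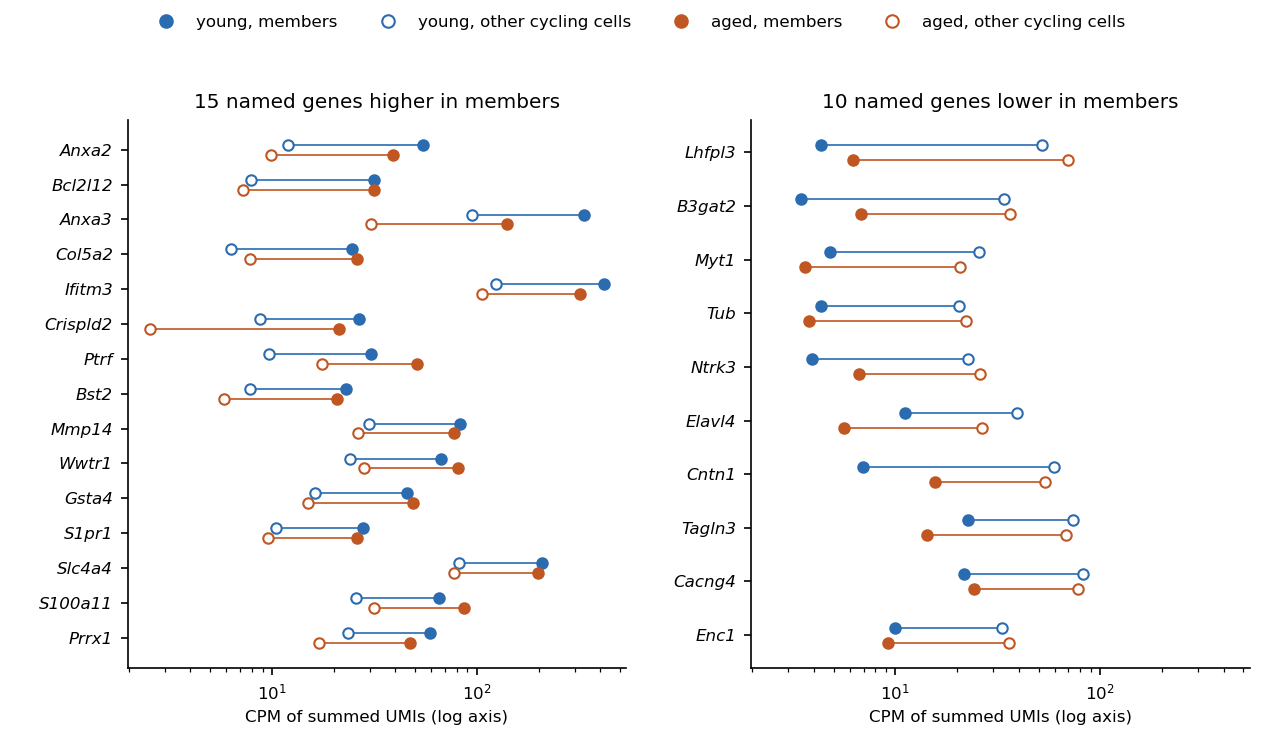
Levels of the 15 genes named as highest (left) and the 10 named as lowest (right), in CPM of summed UMIs on a log axis, for members (filled) and other cycling cells (open) of the young (blue) and aged (orange) library. For Lhfpl3 the members lie at 4.34 and 6.22 CPM and the other cells at 52.2 and 70.0 CPM.

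All members held Mki67 by the rule, at 594 against 684 CPM and 610 against 714 CPM. Of 42 S-phase genes, 4 were lower (Mcm4, Rad51ap1, Wdr76 and Atad2) and none higher, with a median of −0.36. Their summed level was 3213 against 4052 CPM in the young and 3123 against 3888 CPM in the aged library, log2 ratios of −0.33 and −0.32. None of 51 G2/M genes passed 1.5-fold, and their sum was 10632 against 11452 CPM and 10495 against 12054 CPM. Of 13 p53 targets 2 were lower, Bbc3, which promotes apoptosis, and Trp53inp1. Of 11 immediate early genes Fos and Ier2 were lower.

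Levels changed gradually with the score below its limit. Cycling cells with Apoe under 500 CPM were divided into those with a score of 0, up to 25%, 25 to 50% and 50 to 100% of the limit, and the lower and upper part of the members. In the young library Anxa2 was at 2.73, 6.10, 13.5 and 30.4 CPM below the limit and at 50.2 and 58.0 CPM in members. In the aged library it was at 1.3, 4.70, 10.9 and 28.5 CPM and then at 38.9 CPM in both parts. The bins are made on the score of the rule, and the genes were named for their difference between its groups, so these values are a description.

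Below the limit Wwtr1 also increased with the score, from 5.00 CPM at score 0 to 52.1 CPM just under the limit and 69.3 CPM in the upper part of the young members, and from 8.37 to 59.8 CPM below the limit in the aged. Within the aged members it was at 94.7 CPM in the lower and 62.4 CPM in the upper part, so there the level did not go on with the score. Lhfpl3 went the other way, from 97.2 to 7.54 and 3.87 CPM in the young and from 125 to 12.9 and 6.24 CPM in the aged library. Nes stayed between 585 and 663 CPM in all 12 bins. Median depth also moved with the score, from 21543.5 UMIs at score 0 to 28952 just under the limit in the young library and from 23742 to 31709 in the aged. Its part was not tested.

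**Figure D3:**
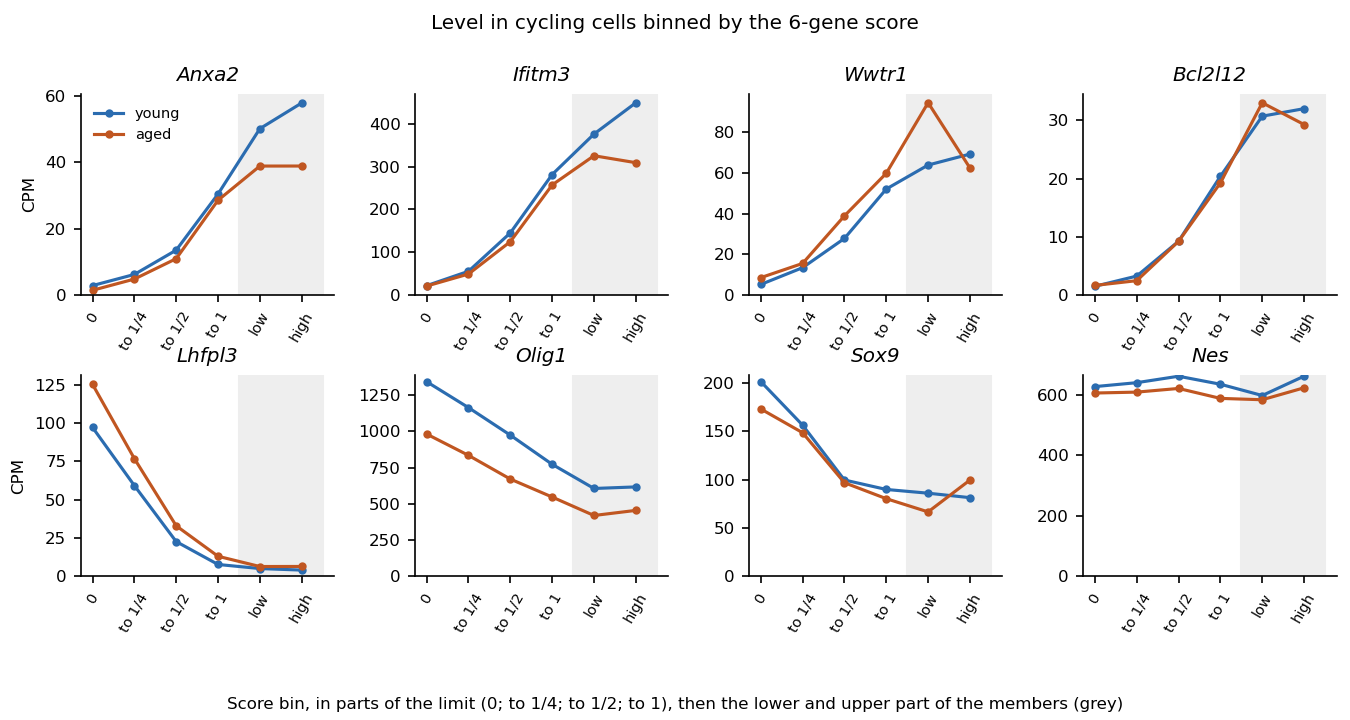
CPM of 8 genes (y axis, from 0) in cycling cells with Apoe under 500 CPM, binned by the 6-gene score (x axis), with members in grey and 1 line per library. Anxa2, Ifitm3, Wwtr1 and Bcl2l12 rise from bin to bin below the limit in both libraries, Lhfpl3, Olig1 and Sox9 fall there, and Nes lies between 585 and 663 CPM throughout.

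All kept cells were also clustered without the genes of the rule. Of 13 clusters, 3 held 92.9% of the members, 120 in cluster 2, 155 in cluster 7 and 92 in cluster 12, and 27.8% of the other cycling cells. No cluster was made of members alone, and they were 16.7%, 33.2% and 25.3% of the cycling cells in these 3. Cluster 2 was led by Tead2, the hedgehog pathway factor Gli3 and replication genes such as Pole2 and Ccne2. Cluster 7 was led by Cdc42ep2, the tubulin gene Tuba1c and Gja1, and cluster 12 by Serpinb8, Tuba1c and mitotic genes such as Nek2, Aurka and Plk1. Of a member's 20 nearest neighbours in these genes, 32.7% were members on average, against 5.35% for another cycling cell. All of these cells were used to make the clusters, so this is a description.

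**Figure D4:**
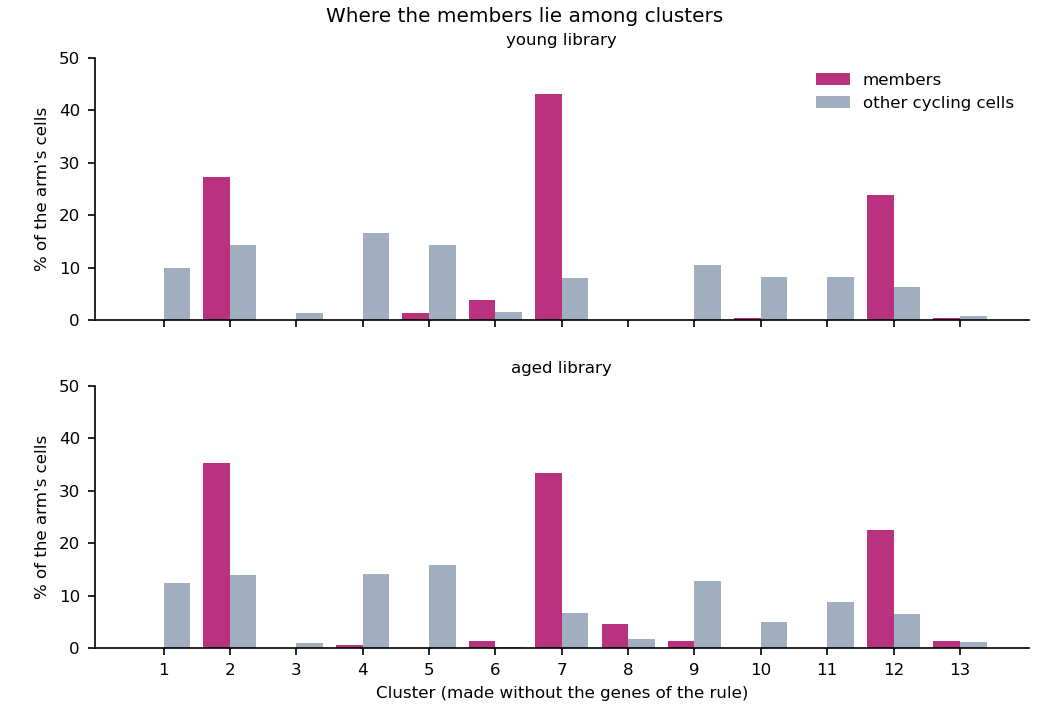
Share of the members (magenta) and of the other cycling cells (grey) of each library that lie in each of 13 clusters made without the genes of the rule. In both libraries clusters 2, 7 and 12 stand out for the members, at 27.2%, 43.1% and 23.8% in the young and 35.3%, 33.3% and 22.4% in the aged library.

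Few gene differences passed the same limit within these clusters. When 367 members were compared only with the 1183 other cycling cells of the same clusters, a comparison added after the data had been seen, 15 genes were higher (0.186% of 8071) and 20 lower (0.248%). Of the 201 genes higher and 297 lower in the full comparison, 14 and 16 were among them. The 15 include all 6 score genes, and the others are Anxa2, Bcl2l12, Col5a2, Col5a3, Fstl1, Pde9a, Spp1, Tgif1 and Ttc23. The 20 include Apoe, which the rule used, and also Elavl4, Cntn1 and Tagln3. Anxa2 was at 54.8 against 24.9 CPM in the young and 39.7 against 21.9 CPM in the aged library in this comparison. The neighbours there had a median score of 237 CPM, more than that of all other cycling cells, at 55.9 and 47.9 CPM.

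Of the genes on the lists, 32 higher and 26 lower in the full comparison came down to 1 higher (Anxa2) and 2 lower here. The members and others are spread differently over the 3 clusters, and in cluster 7 alone 6 of the 15 genes named as highest passed 1.5-fold in both libraries. These were Anxa2, Bcl2l12, Col5a2, Anxa3 (log2 ratios of 0.90 and 1.32), Ifitm3 (0.83 and 0.62) and Crispld2 (1.295 and 1.97). The 15 genes were named for their difference in cells that include those of cluster 7. The share over all genes in that cluster was not taken, so this count is a description. The median of the astrocyte list turned from 0.39 to −0.04 and that of the matrix and integrin list from 0.44 to −0.06. Most of the differences listed above thus did not pass 1.5-fold between members and the other cycling cells of their own clusters. The sums of cell cycle genes were compared within each cluster, since members and others fill the 3 clusters in different shares. In cluster 7 the G2/M sum was at 8606 against 9041 CPM in the young and 8534 against 9072 CPM in the aged library, and in cluster 12 at 17488 against 17888 CPM and 18607 against 18946 CPM. In cluster 2 it was at 7499.9 against 7112 CPM and 7445 against 8041 CPM, so it was lower in members in 5 of 6 comparisons. The S-phase sum was at 4938 against 5052 CPM and 4565 against 4792 CPM in cluster 2, 2369 against 2739 CPM and 2069 against 2093 CPM in cluster 7, and 2753 against 2756 CPM and 2524 against 2633 CPM in cluster 12. It was lower in members in all 6 comparisons, in several by little.

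Between the libraries, members were compared over 8287 genes with at least 10 CPM in either. In the aged library 218 genes (2.63%) were at least 1.5-fold higher and 153 (1.85%) lower, and at 2-fold 51 (0.615%) and 27 (0.326%). In the other cycling cells 69 (0.833%) and 49 (0.591%) of the same genes passed 1.5-fold. Counting error differs between these, since 10 CPM stands for 49.9 UMIs in the aged members and 609 in the other aged cycling cells. Of the 371 genes past 1.5-fold in members, 96 (25.9%) passed the same way in the other cells, and these were 81.4% of the 118 genes that did so there.

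Of the 23 astrocyte and quiescent stem cell genes, 7 were higher in aged members and none lower. Slc1a3 was at 408 and 783 CPM in young and aged members, the protease inhibitor gene Cst3 at 532 and 989.7 CPM, and the metallothionein gene Mt3 at 256 and 509 CPM. Atp1b2, Hepacam and Ttyh1 were also among them. In the other cycling cells the log2 ratios of these 6 genes lay in the same direction, from 0.26 to 0.86. When every cell was thinned to 5000 UMIs and members were chosen again, 170 young and 86 aged, Ttyh1 turned to −0.17 in members. At that depth 10 CPM stands for 8.5 UMIs in young and 4.3 in aged members. The clusters of the members differed between libraries too, with 43.1% of young and 33.3% of aged members in cluster 7. Cluster 8 held 0 young against 7 aged members, and 491 of its 516 cells were from the aged library. Cluster 6 went the other way, with 9 young against 2 aged members and 555 of its 598 cells from the young library. The part of these cluster differences was not tested.

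Among the 8 genes named as highest in aged members were also Wdfy1, an endosomal adaptor protein, at 8.98 and 59.8 CPM, Gmpr, an enzyme of purine metabolism, at 20.4 and 73.2 CPM, and the histone deacetylase gene Hdac5, at 17.1 and 51.9 CPM. Wdfy1 was at 9.82 and 56.0 CPM in the other cycling cells. The transcription factor gene Mef2c was at 68.8 and 166 CPM, and Akap7, an anchor of protein kinase A, at 24.0 and 58.8 CPM. Cryab, a small heat shock protein, was at 32.4 and 78.8 CPM in members but at 70.3 and 85.7 CPM in the others. Erdr1, at 13.8 and 136 CPM, is a gene with several copies, and its counts are uncertain.

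Lower in aged members were Trf, transferrin, at 58.5 CPM in young and 21.1 CPM in aged members, and Pttg1, securin, at 181 and 70.0 CPM. Pttg1 was at 110 and 28.3 CPM in the other cycling cells, log2 ratios of −1.92 there and −1.36 in members, a difference that was not tested. The imprinted gene Peg10 was at 208 and 86.6 CPM, the matrix protein gene Sparc at 95.1 and 40.1 CPM, the angiopoietin gene Angpt2 at 70.5 and 30.3 CPM, and Rtn1, a reticulon, at 324 and 162 CPM. Of 11 immediate early genes 5 were lower in aged members (Fos, Fosb, Junb, Egr1 and Ier3) and none higher, and Fos was at 29.4 and 13.2 CPM. The whole immediate early list summed to 885 and 739 CPM in young and aged members. It was also lower with age in the other cycling cells, at 1170 and 931 CPM. The cell cycle inhibitor gene Cdkn2a was at 158 and 81.8 CPM in young and aged members. Its level in the other cycling cells is not set beside it here. Of 18 genes for cyclins and inhibitors of their kinases, 1 was lower and 1 higher in aged members, with a median log2 ratio of −0.03. None of the 42 S-phase and 51 G2/M genes passed 1.5-fold between the libraries.

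**Figure D5:**
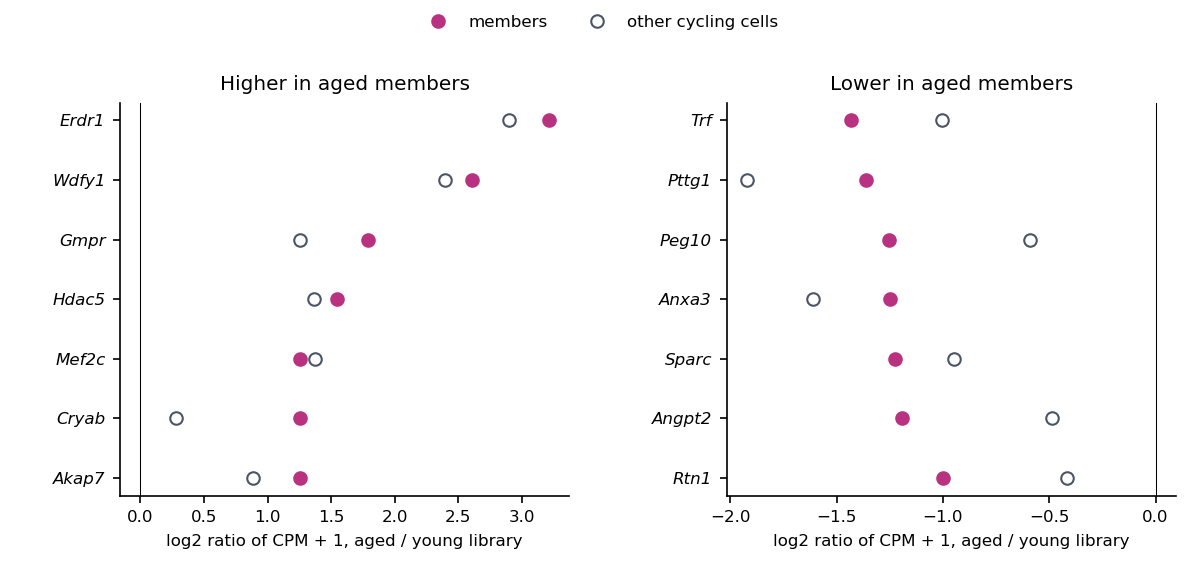
Log2 ratio of CPM plus 1 between the aged and the young library (x axis) for 7 of the 8 genes named as highest and 7 of the 8 named as lowest in aged members, in members (filled) and in the other cycling cells (open). Every gene shown lies on the same side of 0 in both, and Cryab shows a wide gap, at 1.26 in members and 0.28 in the others.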

How the data were processed

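Single-cell 3′ RNA-seq of 2 libraries, 1 per age, was analysed. The matrices that the authors deposited give UMI counts for each gene and barcode, not normalized. The submitters' processing notes name Cell Ranger 3.0.2 and mm10, and the gene annotation used was not given in the sources used here. The members and gene lists were chosen with earlier results of these data known.

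Barcodes under 5000 UMIs or over 20% mitochondrial UMIs were left out. No doublet caller was run. Counts were summed over the cells of an arm and library and given as CPM. A gene was compared with at least 10 CPM in either arm of each library, which it could reach through the arm where it was high, and was called higher or lower at 1.5-fold the same way in both libraries, by log2 of CPM plus 1. Named genes were the 15 highest and 10 lowest by the smaller of the 2 libraries' changes, with the score genes set aside. These needed at least 20 CPM in an arm of each library. The 8 highest and 8 lowest by age in members, which needed at least 50 CPM in either library, were also named. So were genes of the lists. Genes under these levels were not ranked, such as Lamb2 and Pak3 for the first and Dchs1 for the second. Ratios carry exact conditional binomial intervals, shares Clopper-Pearson and sums exact Poisson intervals, each at 95%. They cover counting error alone, since cells of 1 library are not replicates.

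Sums were simulated for the 8236 genes compared with Poisson counting error alone, without variation between cells or clusters. There 100% of genes changed 2-fold and 3-fold were called. So were 95.6% of the 45 compared genes lowered to 0.5 of their level. Of genes changed 1.3-fold and of unchanged genes 0% were called. This checks the calling steps and cannot give the rate of false calls among real cells. Clusters used 2000 variable genes without the genes of the rule, 30 principal components, 20 neighbours and Leiden resolution 1. Start-site sequences came from RefSeq, GRCm38.p6, and 146 of 195 higher and 213 of 297 lower genes matched by symbol. Alternatives were other limits of the rule, other filters, scaling, pseudocount and thinning. Python 3.11.15, numpy 2.4.6, scipy 1.17.1, pandas 2.3.3, scikit-learn 1.9.0 and leidenalg 0.10.2 were used. Some genes are not reported here.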

Additional observations from a re-analysis of the deposited data

Results flagged for a closer look

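Dchs1, a protocadherin that acts as ligand for Fat4 upstream of the Hippo pathway, differed in opposite directions in the libraries. It was at 26.5 CPM in young members against 17.0 CPM in the other young cycling cells, a log2 ratio of 0.61, and at 6.62 against 13.4 CPM in the aged library, a log2 ratio of −0.92. The aged member value rests on 33 UMIs and the young one on 183. It was the only gene of 8236 past 1.5-fold both ways, and the difference between libraries was not tested.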

How the results depend on the processing

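No paired analysis was possible because each age had 1 library. The member share of cycling cells, young then aged, was 15.7% and 8.30% at a mitochondrial limit of 10%, 6.85% and 4.76% with the top 8% by score, 13.9% and 9.43% with the top 16%, and 11.5% and 9.08% with no Apoe limit, and 5.62% in the aged library with cells thinned to 5000 UMIs. Genes higher and lower in members were 69 and 75 at 50 CPM or more, 347 and 647 with no filter, and 15 and 20 within the 3 clusters. With the comparison cells also held under the Apoe limit, a setting that was not planned, they were 250 and 319. Thinning to 5000 UMIs also chose the members again, 170 young and 86 aged. Then 133 of the 201 higher (66.2%) and 160 of the 297 lower genes (53.9%) were called again. At the 10% mitochondrial limit 139 of the 218 genes higher (63.8%) and 76 of the 153 lower (49.7%) in aged members were. Those on the lists were 17 and 12 at 50 CPM, 1 and 2 within the clusters, 47 lower with no filter, and 51 higher with no Apoe limit. Genes higher and lower in aged members were 53 and 39 at 50 CPM, 798 and 629 with no filter, and 1012 and 1159 when thinned, where 10 CPM stands for 8.5 UMIs in young and 4.3 in aged members. The mean S-phase log2 ratio was −0.21 at the 10% mitochondrial limit, −0.35 and −0.30 at the top 8% and 16%, −0.29 with Mki67 at 40 CPM or more, −0.38 with no Apoe limit, −0.28 when thinned and −0.23 within the clusters, where the G2/M ratio over the pooled clusters turned to 0.026, while within single clusters the G2/M sum was lower in members in 5 of 6 comparisons. List medians also turned there, to −0.041 for astrocyte, 0.057 for proneural, 0.0047 for G2/M, −0.057 for matrix, −0.0052 for EGF and MAPK and 0.040 for stress response genes. When thinned, that of EGF and MAPK genes turned to −0.011, and the age ratios of Tagln3 and Ttyh1 to 0.49 and −0.17. The log2 ratio of the gene left out of the score was then 2.37 for Gja1, 1.28 for Emp1, 1.39 for Anxa5 and for Cdc42ep2, and 2.00 for Mgst1. At Leiden resolution 2 the leading clusters held 80.8% of members, and with 50 neighbours 30.8% of a member's neighbours were members. The causes were not tested.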
